A study of Caenorhabditis elegans with 2 samples.

Results

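The enzymes of glycolysis, gluconeogenesis, the tricarboxylic acid (TCA) cycle, the glyoxylate cycle and sugar storage were followed in whole Caenorhabditis elegans, a nematode, on 2 Affymetrix arrays. Members were the probe sets (groups of short probes that read 1 transcript) that the platform annotation gives to exactly 1 gene, with that gene among 40 listed enzyme genes. This gave 56 probe sets of 37 genes, out of 20766 probe sets of 17118 genes. The other 3 listed genes, gpd-1, gpd-4 and enol-1, had no probe set of their own, and gpd-1 and gpd-4 share the same 2 sets. The rule names genes and uses no value, but the gene list was drawn up with earlier results of these data known.

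In 1 group the animals were fed Escherichia coli strain HT115 that makes double-stranded RNA for imp-2, and in the control group HT115 that makes double-stranded RNA for green fluorescent protein (GFP). Double-stranded RNA taken up with food starts RNA interference (RNAi) in this animal, and both groups were exposed to it. The gene imp-2 encodes a presenilin-related intramembrane protease. Each group is 1 array of total RNA, so differences between the groups have no replicate behind them and carry no p-value. The labels used here state neither the worm strain nor age or culture conditions, and next to the whole animal the sample titles list a mammalian brain region.

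Glycolysis splits glucose to pyruvate, and the pyruvate dehydrogenase complex turns pyruvate into acetyl-CoA, which the TCA cycle oxidises. Nematodes differ from vertebrates in having the glyoxylate cycle, which skips the steps of the TCA cycle that release carbon dioxide. It so lets carbon from stored fat reach malate, oxaloacetate and, through gluconeogenesis, sugars. Nematodes also store and transport glucose as trehalose, a sugar made of a pair of glucose units, beside glycogen.

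The level of imp-2 itself cannot check the labels. The brighter imp-2 probe set read 1754 under the imp-2 RNAi label and 2318 under the GFP RNAi label (log2 ratio −0.41), while the other set read 2517 and 510 (log2 ratio 2.29). Both arrays are therefore named by their labels, and each log2 ratio below is the array labelled imp-2 RNAi over the array labelled GFP RNAi, after subtraction of the median ratio of the 8553 expressed genes (0.01). Genes with a mean log2 intensity above the median over all probe sets other than controls were taken as expressed. Each array's median intensity (35.3 under the imp-2 RNAi label and 30.1 under the GFP RNAi label) served as a floor to which lower values were raised, and folds against raised values are lower bounds. Where a gene had several probe sets, the brightest one stands for it. The spread between expressed probe sets of the same gene was 0.37 on the log2 scale (2489 pairs). It is the root mean square difference of the pairs divided by the square root of 2, so that root mean square difference itself is larger. This spread measures disagreement within these arrays and nothing about the spread between cultures.

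Tissue markers were compared between the labels beside the 9.72% and 2.27% of all expressed genes that were at least 2-fold higher and lower. Under the imp-2 RNAi label 4 of 8 expressed intestine markers were higher by that much, as were 1 of 6 sperm, 1 of 6 epidermis, 1 of 8 neuron, 0 of 9 muscle and 0 of 8 germ line and oocyte markers, and 0 markers were lower by that much. The summed intensity of the 9 measured intestine markers was 8280 against 5958; the intestinal transcription factor gene elt-2 lay under the floor on both arrays. The summed intensity of 7 sperm markers was 11360 against 6911, with spe-9 under both floors, and that of 8 germ line and oocyte markers was 12086 against 14568. The sums were 12004 against 11277 for muscle markers, with hlh-1 under both floors, and 13188 against 12958 for epidermis markers, with che-14 and mlt-10 under both floors. Neuron markers summed to 2312 against 2322, although their log2 ratios ran from −0.91 to 1.11. The part of these differences in the enzyme values was not tested, and in whole animals fewer cells of a type and less RNA per cell cannot be told apart.

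All 37 measured enzyme genes counted as expressed, and most differed little between the labels. Past 2-fold on the higher side under the imp-2 RNAi label were 3 of them, which is 8.11%, against 9.72% of all expressed genes. On the lower side it was 1, which is 2.70% against 2.27%. The remaining 33 lay within 2-fold, and 78.4% lay within 1.5-fold, against 71.4% of all expressed genes and 81.8% of those above the 75th percentile of brightness, where 32 of the 37 enzymes lie. Among the 32, 2 were higher and 0 lower by 2-fold, where 4.49% and 1.88% of all such bright genes were. At 1.5-fold, 7 of the 37 were higher (18.9%) and 1 was lower (2.70%), against 19.0% and 9.60% of all expressed genes. The shares at 2-fold and that of higher genes at 1.5-fold are near the background and do not set the enzymes apart. The share lower at 1.5-fold was below it, but the count of lower enzymes depended on the centring. The genes pdhb-1 (log2 ratio −0.55) and mdh-2 (log2 ratio −0.53) fell just short of 1.5-fold lower. Centred without the filter on dim genes, they had log2 ratios of −0.77 and −0.75, past 1.5-fold lower. This centring lowers the ratios of all genes by the same amount. The share of all expressed genes 1.5-fold lower under it was not counted. The median log2 ratio of the enzymes was 0.10, beside 0.00 for all expressed genes and −0.09 for those above the 75th percentile of brightness. Centring without the filter on dim genes moved the centre from 0.01 to 0.23 and the median of the enzymes to −0.12. The ratios of all expressed genes move with it, so −0.12 cannot be set beside that 0.00 and −0.09. The 3 higher genes were tps-1 and tps-2 of trehalose synthesis and icl-1 of the glyoxylate cycle, and the lower one was the hexokinase gene hxk-2.

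**Figure D1:**
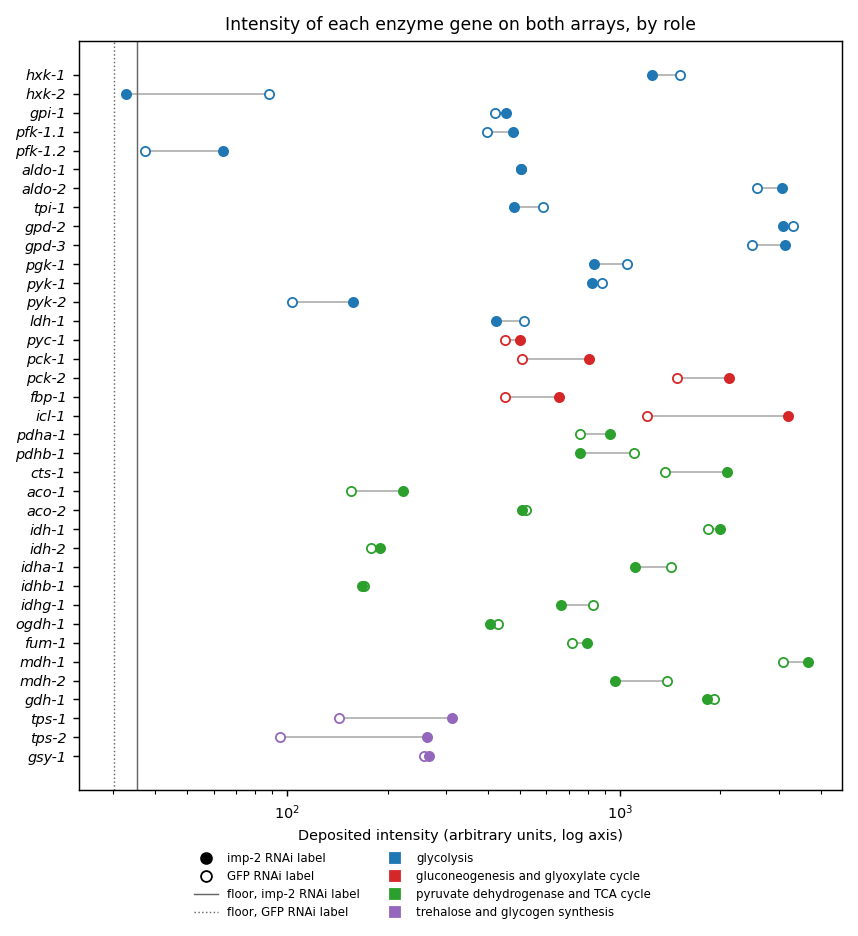
Deposited intensity (arbitrary units, log axis) of the brightest probe set of each of the 37 enzyme genes, with filled points for the array labelled imp-2 RNAi, open points for the array labelled GFP RNAi and vertical lines for the floors of both arrays. The long gaps belong to tps-1 (313 against 143), tps-2 (262 against 94.9), icl-1 (3197 against 1205) and hxk-2 (32.8 against 88.0), and the hxk-2 point under the imp-2 RNAi label lies left of that array's floor.

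Both trehalose-6-phosphate synthase genes, tps-1 and tps-2, were higher under the imp-2 RNAi label. Their enzymes join glucose-6-phosphate and UDP-glucose. The intensity of tps-1 was 313 under the imp-2 RNAi label and 143 under the GFP RNAi label, a log2 ratio of 1.12 (2.17-fold higher). Its other probe set read 186 and 74.5, a log2 ratio of 1.31, so both tps-1 sets lay past 2-fold and differed from each other by 0.19, less than the spread between probe sets. When ratios were centred over all genes without the filter on dim genes, the log2 ratio of tps-1 was 0.90 and under 2-fold. The single probe set of tps-2 read 262 and 94.9, a log2 ratio of 1.45 (2.74-fold higher). Of all expressed genes, 3.33% had a ratio as high as that of tps-2 and 7.56% one as high as that of tps-1. The glycogen synthase gene gsy-1 stood apart from them: its brighter set read 266 and 257 (log2 ratio 0.04), and its other set read 208 and 291 (log2 ratio −0.49).

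The glyoxylate cycle gene icl-1 was higher under the imp-2 RNAi label on all 3 of its probe sets, by different amounts. In nematodes icl-1 encodes a single protein with both activities of the cycle, isocitrate lyase and malate synthase. The brightest set read 3197 and 1205, a log2 ratio of 1.40 (2.63-fold higher), and 3.94% of all expressed genes had a ratio as high. The second set read 2169 and 1422, a log2 ratio of 0.60, and the third 1524 and 835, a log2 ratio of 0.86. The difference of 0.80 between the first and the second was the largest among 20 pairs of probe sets of the enzyme genes. With the mean of its sets icl-1 had a log2 ratio of 0.96, just under 2-fold, and the suffix of each set marks possible matches to several transcripts.

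The gluconeogenesis genes had ratios on the same side as icl-1 on their brightest sets, though none reached 2-fold. Phosphoenolpyruvate carboxykinase, which makes phosphoenolpyruvate from oxaloacetate, is encoded by pck-1 and pck-2. The intensity of pck-1 was 806 under the imp-2 RNAi label and 507 under the GFP RNAi label (log2 ratio 0.66), and that of pck-2 was 2122 and 1481 (log2 ratio 0.51). They were 1.58-fold and 1.42-fold higher, from 1 probe set each. For fbp-1, which encodes the fructose-1,6-bisphosphatase that removes a phosphate on the way to glucose, the sets disagreed: the brighter one read 653 and 450 (log2 ratio 0.52) and the other 356 and 400 (log2 ratio −0.18). The pyruvate carboxylase gene pyc-1, whose enzyme makes oxaloacetate from pyruvate, read 500 and 452 (log2 ratio 0.14). The median of these 4 genes and icl-1 was 0.52, and all 5 lay above 0; beside it, the upper quartile of all expressed genes was 0.41. Without the filter on dim genes the median was 0.31 and pyc-1 had a log2 ratio of −0.08. That setting lowers the ratios of all genes by the same amount, so the upper quartile of 0.41 falls with them. The pck-1, pck-2 and fbp-1 ratios are between 1 and 2 times the spread between probe sets of a gene, and that of pyc-1 is below it.

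**Figure D2:**
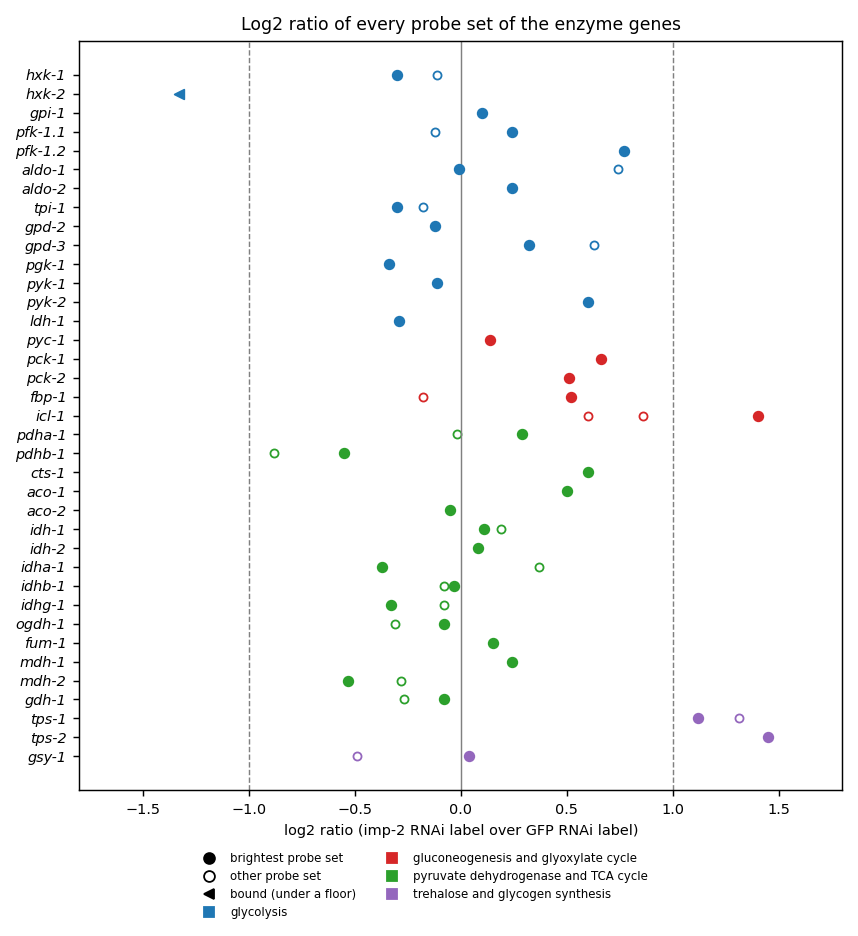
Log2 ratio (imp-2 RNAi label over the GFP RNAi label) of all 56 probe sets of the enzyme genes, with filled points for the brightest set of a gene, open points for its other sets, a triangle for a bound and dashed lines at 2-fold. Both sets of tps-1 and the set of tps-2 lie right of the 2-fold line, the icl-1 sets spread from 0.60 to 1.40, and the sets of aldo-1, fbp-1 and idha-1 lie far from each other.

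The ratios of the glycolysis genes centred near 0. Of all 8553 expressed genes, 7528 lay within 2-fold and 71.4% within 1.5-fold. Of the 14 measured glycolysis genes 13 lay within 2-fold and 11 within 1.5-fold, near those shares, and the median log2 ratio was −0.06. The exception was hxk-2, which encodes a hexokinase, the enzyme that phosphorylates glucose on entry. Its single probe set read 32.8 under the imp-2 RNAi label, below the floor of 35.3, and 88.0 under the GFP RNAi label, which is at least 2.51-fold lower. The set is dim and its suffix marks possible matches to several transcripts, so hxk-2 has no value when such sets or genes below the 75th percentile of brightness are left out. The other hexokinase gene, hxk-1, read 1243 and 1515 (log2 ratio −0.30), with −0.11 on its second set.

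The genes of the middle steps of glycolysis had small ratios on both sides of 0. Glucose-6-phosphate isomerase (gpi-1) read 454 under the imp-2 RNAi label and 421 under the GFP RNAi label, a log2 ratio of 0.10. Of the phosphofructokinase genes, whose enzyme commits sugar to glycolysis, pfk-1.1 had log2 ratios of 0.24 and −0.12 on its sets. The other one, pfk-1.2, read 64 and 37.3 (log2 ratio 0.77, 1.70-fold higher), and its lower value lies near the floor of 30.1. Aldolase cuts the 6-carbon sugar phosphate into 3-carbon units. Its gene aldo-2 read 3068 and 2576 (log2 ratio 0.24), whereas the sets of aldo-1 gave 504 against 502 (log2 ratio −0.01) and 331 against 197 (log2 ratio 0.74). Triosephosphate isomerase (tpi-1) had log2 ratios of −0.30 and −0.18 on its sets.

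In the later steps, glyceraldehyde-3-phosphate dehydrogenase (GAPDH), the enzyme that makes NADH in glycolysis, was measured through the neighbouring genes gpd-2 and gpd-3. The gpd-2 set read 3076 and 3307 (log2 ratio −0.12). The gpd-3 sets read 3128 and 2491 (log2 ratio 0.32) and 2060 and 1318 (log2 ratio 0.63). All 3 sets carry a suffix for possible matches to several transcripts, so these paralogs are not told apart with certainty. Phosphoglycerate kinase (pgk-1), which makes ATP from the GAPDH product, read 832 and 1045 (log2 ratio −0.34). Pyruvate kinase, the last step, gave 820 and 879 for pyk-1 (log2 ratio −0.11) and 157 and 103 for pyk-2 (log2 ratio 0.60, 1.51-fold higher). Lactate dehydrogenase (ldh-1), which turns pyruvate into lactate, read 424 and 515 (log2 ratio −0.29).

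Every one of the 15 genes of pyruvate dehydrogenase and the TCA cycle lay within 2-fold, as did 7528 of all 8553 expressed genes. Within 1.5-fold lay 14 of the 15 genes, beside 71.4% of all expressed genes and 81.8% of those above the 75th percentile of brightness. The median log2 ratio of the 15 genes was −0.03. This list includes gdh-1, for glutamate dehydrogenase, which feeds the cycle with 2-oxoglutarate (1825 and 1910, log2 ratio −0.08, and −0.27 on its other set). The subunits of the pyruvate dehydrogenase E1 enzyme had ratios of opposite sign. The alpha subunit gene pdha-1 read 934 and 758 (log2 ratio 0.29), with −0.02 on its other set. The beta subunit gene pdhb-1 read 757 under the imp-2 RNAi label and 1098 under the GFP RNAi label (log2 ratio −0.55), and 236 and 432 on its other set (log2 ratio −0.88). Both pdhb-1 sets thus lay below both pdha-1 sets, and the brightest sets differed by 0.84.

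The citrate synthase gene cts-1, for the entry of acetyl-CoA into the cycle, had the highest ratio of the TCA list. It read 2086 and 1364, a log2 ratio of 0.60 (1.52-fold higher) on 1 probe set. Of the next steps in the mitochondrion, aconitase aco-2 read 506 and 520 (log2 ratio −0.05). The NAD-dependent isocitrate dehydrogenase subunits idha-1, idhb-1 and idhg-1 had log2 ratios of −0.37, −0.03 and −0.33. The second idha-1 set pointed the other way (596 and 458, log2 ratio 0.37), and the mean over its sets was 0.01. The 2-oxoglutarate dehydrogenase gene ogdh-1 had −0.08 and −0.31 on its sets, and the fumarase gene fum-1 read 796 and 714 (log2 ratio 0.15).

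Enzymes that exist in a cytosolic and a mitochondrial form gave different ratios for some pairs. Malate dehydrogenase interconverts malate and oxaloacetate. Its cytosolic gene mdh-1 read 3658 and 3081 (log2 ratio 0.24), and its mitochondrial gene mdh-2 read 965 and 1380 (log2 ratio −0.53), with −0.28 on the second mdh-2 set. The mitochondrial gene was 0.76 below the cytosolic one. For aconitase, the cytosolic gene aco-1 read 222 and 155 (log2 ratio 0.50), so that aco-2 lay 0.56 below it. The NADP-dependent isocitrate dehydrogenase genes did not separate in this way: cytosolic idh-1 had log2 ratios of 0.11 and 0.19 on its sets and mitochondrial idh-2 one of 0.08. With 1 array per group these differences have no test. The spread of 0.37 for probe sets of the same gene is per set. The root mean square difference between sets of 1 gene is larger than that, which limits the reading of 0.56 and 0.76.

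**Figure D3:**
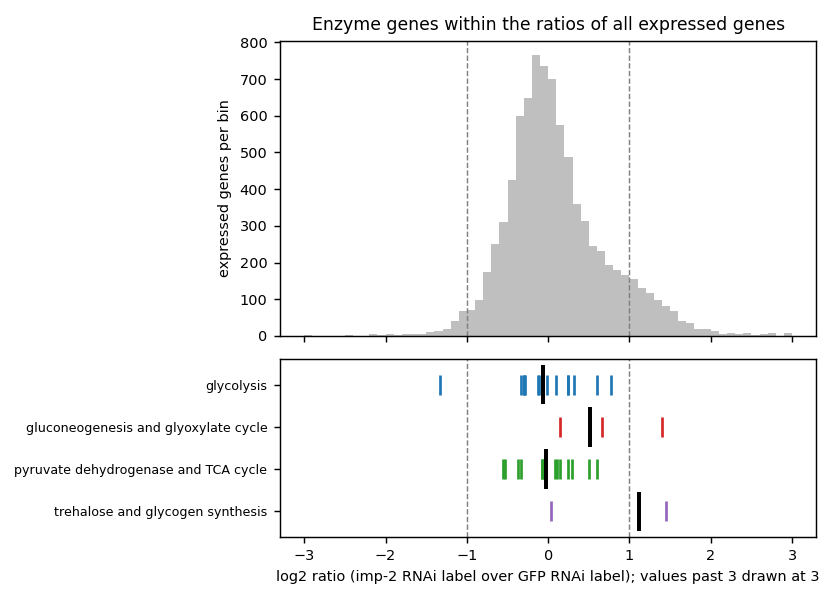
Upper panel: number of the 8553 expressed genes in each bin of log2 ratio (imp-2 RNAi label over the GFP RNAi label). Lower panel: a coloured tick for each enzyme gene by role and a black bar at the median of its role. The medians of glycolysis (−0.06) and of the TCA list (−0.03) sit at the peak of the histogram, while those of gluconeogenesis with the glyoxylate cycle (0.52) and of trehalose and glycogen synthesis (1.12, over 3 genes) lie in its right shoulder.

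Agreement between probe sets bears on how far single values can be read. Of the 37 enzyme genes, 18 had more than 1 probe set; in 4 of these all sets lay above 0 (gpd-3, icl-1, idh-1 and tps-1), in 8 all lay below 0, and in 6 the signs were mixed. The spread between sets was 0.30 over 20 pairs of the enzyme genes and 0.37 over all expressed genes. Signs matched in 70.0% of the enzyme pairs and in 66.7% of the 2489 pairs of all expressed genes. Agreement in sign among the enzymes was thus near that of all expressed genes. The genes with mixed signs were aldo-1, fbp-1, gsy-1, idha-1, pdha-1 and pfk-1.1, whose sets differed by 0.31 to 0.75. Those with all sets below 0 were hxk-1, tpi-1, pdhb-1, idhb-1, idhg-1, ogdh-1, mdh-2 and gdh-1, 6 of them from the TCA list. No more than 1 of the 56 probe sets lay under a floor, and 30 carried a suffix for possible matches to several transcripts.

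Other genes of trehalose and glycogen handling were also higher under the imp-2 RNAi label in part. That list had 11 expressed genes, of which 3 were higher by 2-fold or more and 0 lower, beside 9.72% and 2.27% of all expressed genes. Its median log2 ratio was 0.34. The 3 higher genes were all dimmer than tps-2, which itself lies below the 75th percentile of brightness. Above that percentile 4.49% of expressed genes were 2-fold higher, so the background share depends on brightness. The trehalase gene tre-3, whose enzyme splits trehalose into glucose, read 156 and 66.3 (log2 ratio 1.22), and its other set read 90.3 and 17.8, the latter under the floor (at least 2.97-fold higher). The genes aagr-1 and aagr-4, related to acid alpha-glucosidase, which releases glucose from glycogen in lysosomes, read 245 and 90.1 (log2 ratio 1.43) and 104 and 43.5 (log2 ratio 1.25). The brightest genes of the list were not among them: the glycogenin gene gyg-2 had a log2 ratio of −0.11, the glycogen phosphorylase gene pygl-1 one of −0.35 and the trehalase gene tre-1 one of −0.35. The trehalose-6-phosphate phosphatase gene gob-1, which acts after tps-1 and tps-2 and was singled out after its values were seen, read 80.4 and 86.8 (log2 ratio −0.12).

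The expressed genes of the further lists of central carbon metabolism lay within 2-fold, as did most of the TCA and glycolysis enzymes above. Of all 8553 expressed genes, 7528 lay within 2-fold, so 0 past 2-fold in lists this short does not set them apart. None of the 17 other genes of pyruvate dehydrogenase and the TCA cycle was 2-fold higher or lower, and their median log2 ratio was −0.11. The bright ones were sdhb-1 (0.17) and mev-1 (−0.28), for subunits of succinate dehydrogenase, and sucl-2 (−0.08), for succinyl-CoA ligase. The genes sdha-1 and sdha-2, for the flavoprotein subunit of succinate dehydrogenase and singled out after their values were seen, had the lowest ratios of that list, −0.82 and −0.85. In glycolysis and hexose entry 0 of 8 further genes passed 2-fold in either direction. The phosphoglycerate mutase gene ipgm-1 had a log2 ratio of 0.33, pfkb-1.1 one of −0.13 and the glycerol-3-phosphate dehydrogenase gene gpdh-2 one of 0.47. On their other sets pfkb-1.1 had 0.12 and gpdh-2 had 0.33. The 4 expressed genes of the pentose phosphate pathway, which makes NADPH and ribose from glucose-6-phosphate, lay between −0.09 and 0.34, with tkt-1 (transketolase) at 0.05, tald-1 (transaldolase) at 0.04 and rpia-1 at 0.34.

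Genes that move amino groups to TCA intermediates held 0 of 10 past 2-fold in either direction, with a median log2 ratio of −0.07. Of these, the glutamine synthetase genes gln-6 and gln-5 had log2 ratios of 0.09 and −0.20 and the aspartate aminotransferase gene got-2.2 one of −0.13. The other gln-6 set gave −0.27. Among 11 expressed regulators of fuel use 0 passed 2-fold in either direction, and their median was −0.16. Beside these counts, 9.72% of all expressed genes were at least 2-fold higher and 2.27% lower, so lists this short are not set apart. The nuclear receptor gene nhr-49, which controls fat use, had a log2 ratio of 0.03. The transcription factor genes skn-1 and mxl-2 had log2 ratios of −0.54 and −0.86, with −0.60 and 0.08 on the other skn-1 sets.

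**Figure D4:**
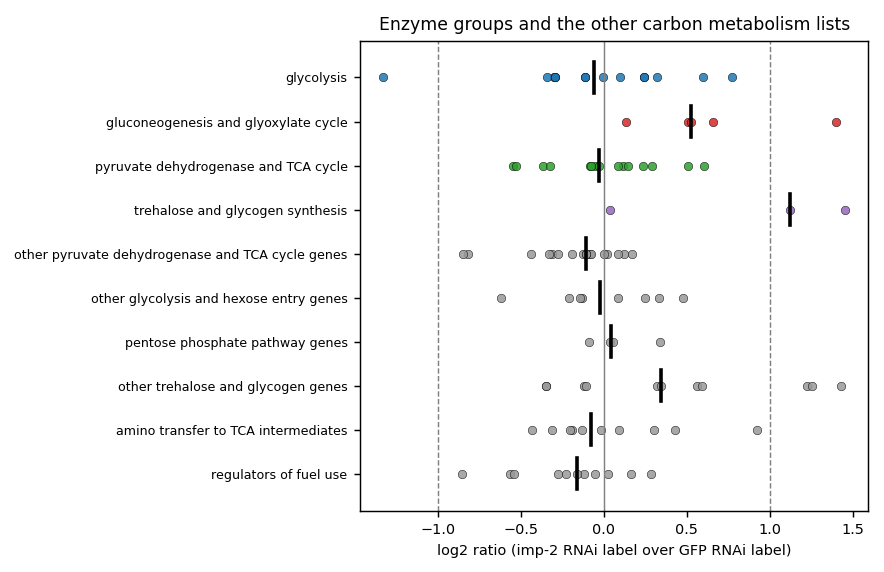
Log2 ratio (imp-2 RNAi label over the GFP RNAi label) of each expressed gene in the 4 role groups of the enzymes (coloured) and in 6 further lists of carbon metabolism (grey), with a black bar at each median and dashed lines at 2-fold. The points right of the 2-fold line belong to icl-1, tps-1, tps-2 and, in grey, tre-3, aagr-1 and aagr-4, and the point left of it is hxk-2.

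**Figure D5:**
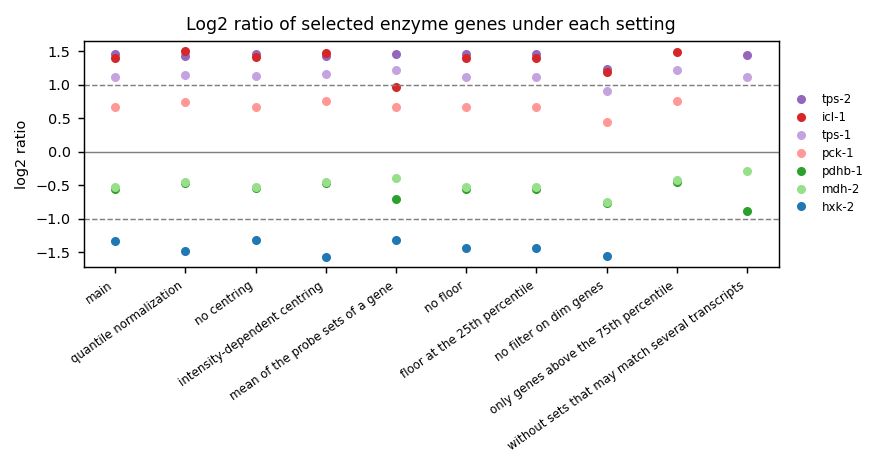
Log2 ratio of 7 enzyme genes, picked after their values were seen, under the reported setting (main) and 9 alternatives, with dashed lines at 2-fold. The values of tps-2 stayed between 1.23 and 1.46, those of icl-1 between 0.96 and 1.5 and those of tps-1 between 0.90 and 1.22. Above the 75th percentile tps-2 and hxk-2 have no point, and without sets that may match several transcripts icl-1, pck-1 and hxk-2 have none.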

How the data were processed

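Total RNA of whole animals was hybridised to 2 Affymetrix arrays, 1 per group, per the labels, whose text on the double-stranded RNA gave the groups. The authors deposited a linear intensity for each probe set. Both arrays had a 2% trimmed mean of 150.04, so they appear scaled to 1 target. The sources used here do not give how probes were summarised, background-corrected and scaled. The number of arrays limits the precision.

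Gene names came from the platform annotation, which gives 1 gene to 20766 of 22548 probe sets other than controls, with symbols checked against the WBcel235 gene table. Intensities were floored at each array's median, converted to log2 and centred on the median ratio of expressed genes, with Python 3.11.15, numpy 2.4.6, pandas 2.3.3 and, for intensity-dependent centring, statsmodels 0.14.6 (span 0.4). Named genes are all members, then from each further list those past 2-fold and its 3 brightest others. The members and lists were chosen with earlier results of these data known. Simulated data of this comparison were run over 8553 expressed genes with the spread between probe sets as noise. There 87 of 100 genes changed 2.83-fold passed 2-fold, and so did 56 of 8353 unchanged genes. The noise had the same size at every brightness, so these counts may not hold for dim genes. Differences among cultures were not simulated. Alternatives were quantile normalization, other centring, the mean over probe sets, other floors and filters, leaving out probe sets that may match several transcripts, and a 1.5-fold threshold.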

Additional observations from a re-analysis of the deposited data

How the results depend on the processing

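Of 314 log2 ratios of single enzyme genes under the alternatives, 310 kept their side of 2-fold and moved by less than the spread between probe sets. Part of this count could hardly change. Leaving out the centring shifts every ratio by 0.01, and 1 of 56 probe sets lay under a floor. The mean over probe sets also hardly moves genes with 1 set. The values outside the 310 were icl-1 (0.96), aldo-1 (0.37) and idha-1 (0.01) with the mean over probe sets, and tps-1 (0.90) without the filter on dim genes. In 11 genes, pyc-1 among them (−0.08 without that filter), the sign changed under at least 1 setting, all with a reported ratio of at most 0.37 in size. Without that filter the centre moved from 0.01 to 0.23, the log2 ratio of the floors. This lowered the ratios of all genes by the same amount and left their order unchanged. The medians then were −0.12 for all enzymes, −0.28 for glycolysis and −0.25 for the TCA list. They were 0.31 for gluconeogenesis and the glyoxylate cycle and 0.90 for trehalose and glycogen synthesis. Above the 75th percentile of brightness 0 enzymes were 2-fold lower, since hxk-2 drops out, and the TCA and trehalose medians were 0.11 and 0.67. Without probe sets that may match several transcripts 0 were 2-fold lower, for the same reason, and the TCA median was −0.28. Intensity-dependent centring gave 0.63 for gluconeogenesis and the glyoxylate cycle, and the mean over probe sets 1.22 for trehalose and glycogen synthesis. At 1.5-fold, 7 enzymes were higher and 1 lower, beside 19.0% and 9.60% of all expressed genes; the added ones were cts-1, pck-1, pfk-1.2 and pyk-2. No paired analysis was possible because each group holds 1 array. Readings near the floors, as for hxk-2 and pfk-1.2, limit those folds.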
